A study of Mus musculus with 7 samples.

Results

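The type 2 cytokine axis was followed through the mouse lung as 10 genes, taken by symbol from the 31253 genes counted in every library. They were the cytokines Il4, Il5 and Il13, the alarmin Il33 and its receptor Il1rl1 (ST2), the shared receptor chain Il4ra, the transcription factor Gata3, the growth factor Areg (amphiregulin), and Retnla and Arg1, which are widely used as markers of cells that have responded to IL-4 or IL-13. Single-cell 3' RNA libraries were made from peripheral lung of 3 Smad4fl/fl and 4 Smad4iko (Smad4fl/fl;Rosa26-creERT2) mice at 8 weeks of age. All 7 were homozygous for the floxed Smad4 allele and all were given tamoxifen, 5 intraperitoneal injections of 75 mg/kg between postnatal days 21 and 26; the controls were littermates without Cre. The Rosa26-creERT2 allele is broadly expressed, so that the deletion is not limited to one cell type. The labels number the libraries within each genotype without saying more on their origin, so the p-values below measure the spread between these libraries.

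In type 2 immunity, stressed or dying epithelial and stromal cells release IL-33, which acts on ST2-bearing cells, among them group 2 innate lymphoid cells (ILC2s), mast cells, T helper 2 cells and part of the regulatory T cells (Tregs). These cells use GATA3 and answer with IL-5, which supports eosinophils, with IL-13 and IL-4, which signal through the IL-4 receptor alpha chain and STAT6, and with amphiregulin, an EGF receptor ligand of tissue repair. Il4, Il13 and Il5 lie close together on one chromosome, within the type 2 cytokine locus.

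The start-site windows of these 3 cytokine genes are shown because their transcripts were compared within the same cells and were found in partly different ones. Each window runs from 250 bases before to 50 bases after an annotated start (RefSeq, GRCm38.p6, strand of the gene, 5′ to 3′), at chr11:53618616-53618915 on the minus strand for Il4, chr11:53634653-53634952 on the minus strand for Il13 and chr11:53720544-53720843 on the plus strand for Il5. Capitals mark matches to AGATAA or TGATAA, which are among the letters that GATA factors favour, and to TTCNNNNGAA, the spacing that STAT6 favours.
Il4: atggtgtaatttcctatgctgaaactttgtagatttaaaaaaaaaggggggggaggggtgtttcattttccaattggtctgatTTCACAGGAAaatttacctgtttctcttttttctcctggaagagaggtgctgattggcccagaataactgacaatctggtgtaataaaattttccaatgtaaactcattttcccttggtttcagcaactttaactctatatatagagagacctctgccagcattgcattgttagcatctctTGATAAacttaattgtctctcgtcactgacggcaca
Il13: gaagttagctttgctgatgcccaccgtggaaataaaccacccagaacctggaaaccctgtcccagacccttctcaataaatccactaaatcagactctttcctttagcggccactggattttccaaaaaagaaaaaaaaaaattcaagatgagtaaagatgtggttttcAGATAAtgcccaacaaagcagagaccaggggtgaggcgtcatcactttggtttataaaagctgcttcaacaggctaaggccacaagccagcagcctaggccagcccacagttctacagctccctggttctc
Il5: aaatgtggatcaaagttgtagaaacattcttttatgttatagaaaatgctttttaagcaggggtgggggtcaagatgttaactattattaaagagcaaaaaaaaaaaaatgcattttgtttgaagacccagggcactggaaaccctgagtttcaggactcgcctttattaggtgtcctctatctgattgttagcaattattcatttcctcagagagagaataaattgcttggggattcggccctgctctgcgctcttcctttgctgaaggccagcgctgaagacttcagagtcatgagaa
Both strands were searched. The Il13 window held AGATAA at base -81 from the start. The Il4 window held TTCACAGGAA at base -167 and TGATAA at base 15, and a second annotated Il4 start had no match. None of these patterns lay in the Il5 window. Forms ending in G, such as AGATAG and TGATAG, were not searched. The printed Il5 window has ctatct, which reads AGATAG on the other strand, and the window of the second Il4 start has TGATAG. Over 32851 RefSeq windows of the same 300 bases, AGATAA or TGATAA was present in 18.6% and TTCNNNNGAA in 6.95%, so that single matches of this kind are common; they are given as a description of the letters only.

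After filtering, 49671 of 55671 deposited barcodes were kept, with 46449235 to 66557262 unique molecular identifiers (UMIs, each standing for 1 captured transcript) deposited per library, and 324 barcode sequences occurred in more than 1 library. The cells were clustered without the 10 genes and named from marker genes, so each class name below means that the cells resemble that type (ILC2-like and so on). Smad4 itself ranged from 78.5 to 86.3 CPM (UMIs of the gene scaled to 1000000 UMIs of the library, or below of the class) in the Smad4fl/fl libraries and from 41.3 to 60.9 in the Smad4iko libraries, lower in all 4; the deleted exons are not given in the sources used here, and 3' counts may lie outside them. Smad4iko 3 and 4 stood apart from the other 5 libraries. Of their naive-like CD4 T cells, 92.4% and 83.5% fell in a cluster that took at most 2.12% of those of any other library; results that rest on them are therefore given with and without them.

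Most of the 10 transcripts were concentrated in a few classes. The 304 ILC2-like cells and the 538 memory-like CD4 T cells held 96.1% of 559 Il5 UMIs, ILC2-like and 84 basophil- and mast-like cells 84.1% of 533 Il13 UMIs, and basophil- and mast-like cells with an unnamed T cell cluster high in Zbtb16 75.4% of 533 Il4 UMIs. Il33 came from structural cells, with 79.1% of 1880 UMIs in alveolar type 2-like cells and adventitial fibroblast-like cells. For Il1rl1, 76.3% of 3151 UMIs lay in ILC2-like, Treg-like and type 2 conventional dendritic (cDC2)-like cells, and 73.9% of 7577 Retnla UMIs lay in cDC2-like cells alone. Il4ra and Gata3 were spread over many classes, with at most 22.8% and 17.9% of their UMIs in any one.

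**Figure D1:**
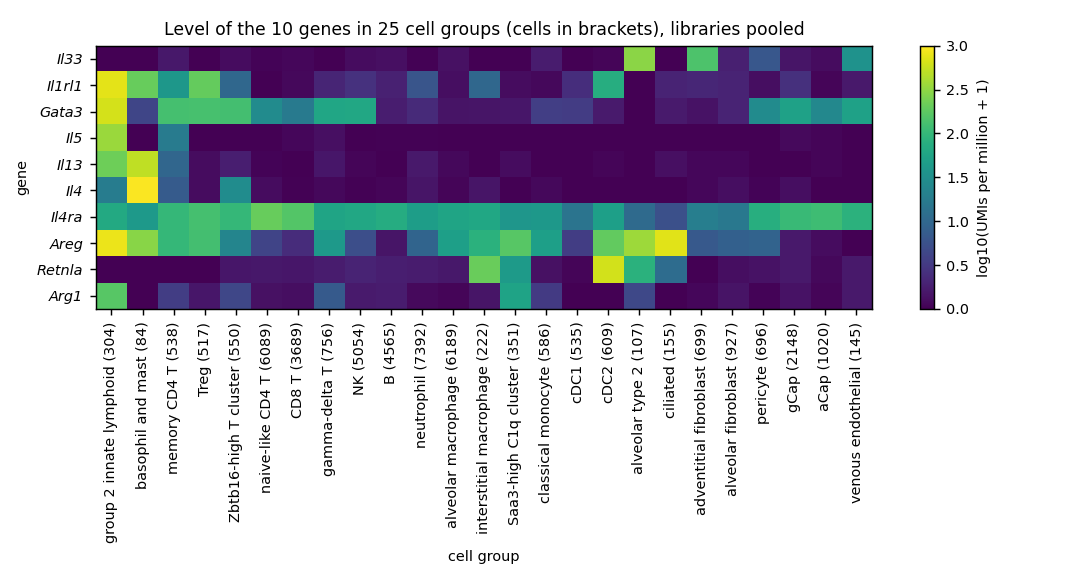
Level of each of the 10 genes (rows) in 25 cell groups (columns, number of cells in brackets), as log10 of CPM plus 1 over the pooled libraries. The cytokine rows are bright in 1 to 3 columns, whereas the Il4ra row has signal across all 25.

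No difference between genotypes passed the test in any of the 10 genes. In whole libraries all 10 entered the fit and 0 passed (edgeR quasi-likelihood test, Benjamini-Hochberg adjusted p of at least 0.635; 1 at an unadjusted p under 0.05; DESeq2 0), against 0% of all 16152 genes. Here fewer cells of a type and less RNA per cell cannot be told apart. Within classes, 44 of 170 gene and class pairs passed the filter on low counts, and a gene could pass through its higher group alone. Of these, 0 passed the test (lowest adjusted p 0.163; 9 at an unadjusted p under 0.05; DESeq2 0), against 0.0601% of all gene tests in the 17 classes. The levels of the genotypes did not overlap in 2 of the 44 pairs, against 7.77% of all tests, and in none of the 10 genes in whole libraries, against 6.99%. With the filter removed 6 pairs passed (edgeR), against 0.571% of all tests, and they are named below where they occur.

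Summed over all kept cells, most of the genes stood at low levels. Retnla ran from 1.94 to 11.3 CPM in Smad4fl/fl and from 5.16 to 71.0 in Smad4iko, with a log2 fold change of 2.57 (SE 0.95, adjusted p = 0.635, edgeR). Il4 stood at 0.36 to 1.41 CPM and 1.16 to 3.42 CPM (1.31, SE 0.64), and Arg1 at 0.70 to 1.94 and 0.94 to 4.55 CPM (1.00, SE 0.65), both with the same adjusted p. Il4ra lay at 86.9 to 110 CPM and 44.1 to 88.0 CPM (-0.43, SE 0.24). The ranges overlapped for each of these genes. In whole libraries Smad4iko 3 and 4 were both above the other 5 for Retnla, Il4 and Arg1 and both below them for Il4ra, Il5, Il1rl1 and Areg. Of all 16152 genes fitted, 1340 had Smad4iko 3 and 4 both above the other 5 and 2742 had them both below. Without them the log2 fold changes were 1.37 for Retnla, 0.45 for Il4, -0.11 for Arg1, -0.14 for Il4ra, 0.91 for Il5, 0.0027 for Il1rl1 and -0.034 for Areg (edgeR adjusted p of at least 0.993), so that Arg1, Il5 and Il1rl1 changed sign. Il5, Il13, Il33, Il1rl1, Gata3 and Areg had fold changes between -0.42 and 0.09 on the log2 scale.

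**Figure D2:**
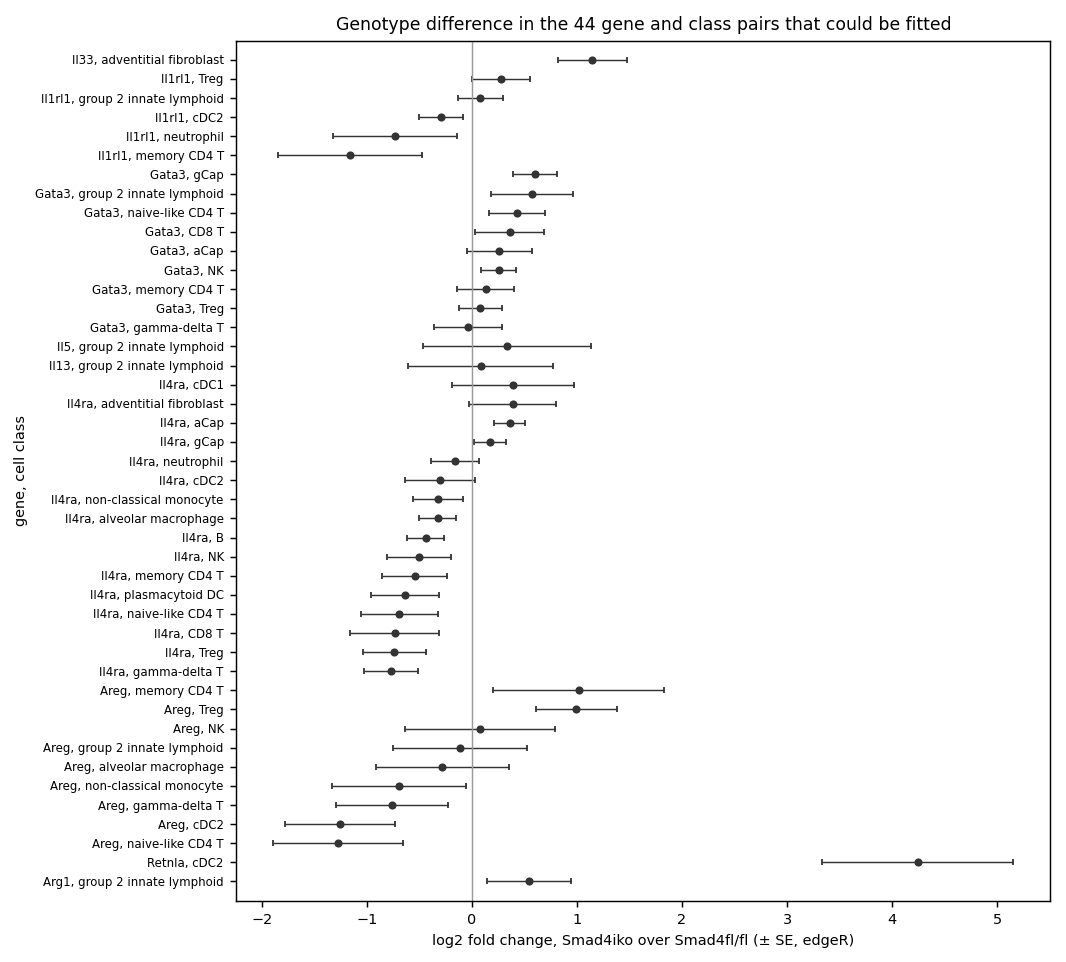
Log2 fold change of Smad4iko over Smad4fl/fl (horizontal axis; points are edgeR estimates and bars 1 standard error) in the 44 gene and class pairs that were fitted. Retnla in cDC2-like cells lies farthest from 0, at 4.24, and 12 of the 16 Il4ra points lie below 0.

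Il33, the alarmin, was highest per UMI captured in the 107 alveolar type 2-like cells. They held 215, 725 and 218 CPM in Smad4fl/fl 1 to 3 and 397, 932, 315 and 241 CPM in Smad4iko 1 to 4. The genotypes overlapped; this class had as few as 2 cells in a library and was not tested. A UMI of Il33 was found in 81.3% of these cells (median 13277 UMIs per cell), compared with 0.110% of B-like cells (median 3912), which should lack it.

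Adventitial fibroblast-like cells were the largest source, with 56.3% of all Il33 UMIs. Their level was 97.4, 150.0 and 88.8 CPM in Smad4fl/fl (112 ± 33.1, SD, n = 3) and 188, 146, 331 and 352 CPM in Smad4iko (254 ± 103, SD, n = 4). Smad4iko 3 and 4 were both above the other 5 libraries, as were 12.4% of all genes of this class, and Smad4iko 2 lay within the control range. The log2 fold change was 1.15 (SE 0.33, unadjusted p = 0.0043, adjusted p = 1.000, edgeR). By the same test it was 0.65 (edgeR adjusted p = 1.000) without Smad4iko 3 and 4, which contributed 19 and 42 of the 699 cells. Without the filter on low counts it was 1.11 and passed (edgeR adjusted p = 0.0147).

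Il33 was uneven within these fibroblasts. The sub-cluster high in Pi16, a marker of adventitial progenitor-like fibroblasts, had 290 CPM and Il33 UMIs in 70.6% of its 177 cells. Within it the levels were 363, 236 and 117 CPM in Smad4fl/fl and 287, 258, 763 and 633 CPM in Smad4iko, the last 2 from 3 and 13 cells. Smad4iko 3 and 4 were again the highest and the other 5 libraries overlapped. In another sub-cluster, of 113 cells, Smad4iko 3 and 4 had more cells, 14 and 22. The levels there were 92.8, 156.2 and 154 CPM in Smad4fl/fl and 158, 378, 156.1 and 171 CPM in Smad4iko. Smad4iko 3 thus lay within the control range in that sub-cluster, and Smad4iko 2, with 4 cells, was the highest. The summed markers of alveolar fibroblasts, the neighbouring type, ran from 2391 to 3764 CPM in the control and from 2568 to 3374 CPM in the Smad4iko cells of this class. Among the other structural classes, lymphatic endothelial-like cells (58 cells, 16 UMIs) reached 43.3 CPM, venous endothelial-like cells 32.9 CPM and pericyte-like cells 5.50 CPM, while alveolar fibroblast-like cells had 6 Il33 UMIs in 927 cells.

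Il1rl1 encodes ST2, the receptor that IL-33 binds. In ILC2-like cells its level was 810, 775 and 646 CPM in Smad4fl/fl (744 ± 86.8, SD, n = 3) and 849, 827, 625 and 701 CPM in Smad4iko (750 ± 106, SD, n = 4). The 7 libraries lay in one narrow range, with a log2 fold change of 0.08 (SE 0.21, adjusted p = 0.999, edgeR). ILC2-like cells exceeded Treg-like cells, and Treg-like exceeded cDC2-like cells, in 7 of 7 libraries.

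In Treg-like cells Il1rl1 stood at 232, 226 and 110 CPM in Smad4fl/fl and at 167, 274, 195 and 250 CPM in Smad4iko, with overlap (log2 fold change 0.28, SE 0.28, adjusted p = 0.771, edgeR). It divided the Tregs. One sub-cluster of 283 cells had 363 CPM of Il1rl1 and 194 CPM of Areg, whereas another of 189 cells had 7 Il1rl1 UMIs in all, so that Il1rl1 marked a subset of the class. In cDC2-like cells the levels were 93.1, 61.0 and 83.3 CPM in Smad4fl/fl and 77.3, 59.2, 67.8 and 67.9 CPM in Smad4iko (log2 fold change -0.29, SE 0.21, adjusted p = 0.764, edgeR). Basophil- and mast-like cells carried Il1rl1 as well, at 0 to 561 CPM by library from 61 UMIs, and were not tested.

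Gata3, the transcription factor that type 2 lymphocytes depend on, reached 569, 333 and 615 CPM in the ILC2-like cells of Smad4fl/fl (506 ± 151, SD, n = 3). The Smad4iko libraries gave 885, 1231, 316 and 496 CPM (732 ± 408, SD, n = 4), so that Smad4iko 1 and 2 were the highest and Smad4iko 3 the lowest of all 7. The log2 fold change was 0.57 (SE 0.39, adjusted p = 0.999, edgeR) and 1.11 without Smad4iko 3 and 4 (adjusted p = 0.468). Treg-like and memory-like CD4 T cells came next at means of 129 and 123 CPM and exchanged places between libraries. Gata3 also occurred outside lymphocytes, for example in general capillary-like endothelial cells at 50.6 CPM, where the log2 fold change was 0.60 (SE 0.21, adjusted p = 0.880, edgeR).

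Il5, the eosinophil growth factor, was an ILC2 transcript in these lungs. The ILC2-like cells held 498, 62.0 and 230 CPM in Smad4fl/fl (263 ± 220, SD, n = 3) and 602, 598, 14.7 and 97.3 CPM in Smad4iko (328 ± 316, SD, n = 4). Values were spread widely within both genotypes, with Smad4iko 1 and 2 highest, Smad4iko 3 lowest and Smad4fl/fl 2 below Smad4iko 4. Between genotypes the log2 fold change was 0.33 (SE 0.80, adjusted p = 0.999, edgeR), and 1.18 (adjusted p = 0.992) without Smad4iko 3 and 4.

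Il13, which drives mucus, airway and macrophage responses, ranked the libraries much as Il5 did. ILC2-like cells had 281, 46.5 and 196 CPM in Smad4fl/fl (175 ± 119, SD, n = 3) and 362, 290, 22.1 and 38.9 CPM in Smad4iko (178 ± 173, SD, n = 4). Smad4iko 3 and 4 were both below the other 5, as were 15.7% of all genes tested in this class. Its log2 fold change was 0.08 (SE 0.69, adjusted p = 0.999, edgeR), and 0.90 (adjusted p = 0.992) without those libraries.

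Areg also varied widely between libraries in ILC2-like cells, with 835, 294 and 1004 CPM in Smad4fl/fl (711 ± 371, SD, n = 3) and 1393, 827, 140 and 175 CPM in Smad4iko (634 ± 597, SD, n = 4). Smad4iko 3 and 4 were again below the other 5, and the fold change went from -0.11 (SE 0.64) to 0.72 on the log2 scale when they were left out (adjusted p = 0.999 and 0.992, edgeR). Arg1, the arginase of ILC2s and of responding macrophages, stood at 77.3, 85.2 and 253 CPM in Smad4fl/fl and at 179, 176, 235 and 195 CPM in Smad4iko (log2 fold change 0.55, SE 0.40, adjusted p = 0.999, edgeR). Unlike Il5, Il13 and Areg, Arg1 was not lower in Smad4iko 3 and 4 than in Smad4iko 1 and 2.

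**Figure D3:**
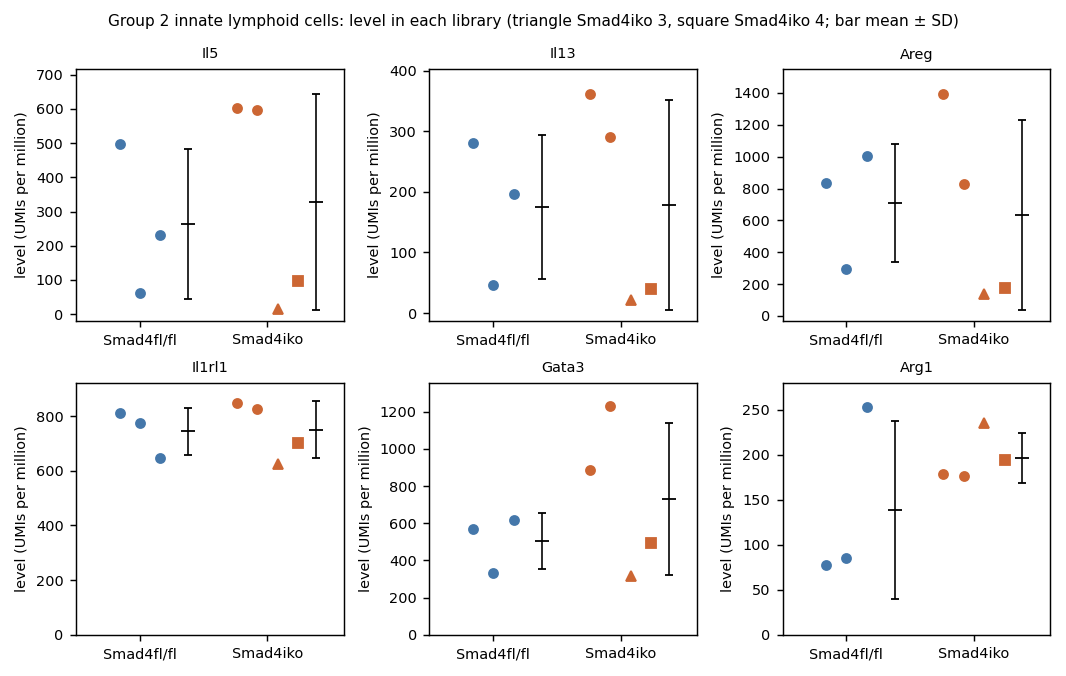
Level of 6 genes in the ILC2-like cells of each library, in CPM (vertical axes); points are libraries, the triangle is Smad4iko 3, the square Smad4iko 4, and bars show mean ± SD by genotype. For Il13 and Areg the triangle and the square lie below the other 5 points, whereas the 7 points for Il1rl1 lie between 625 and 849.

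The cytokines were carried by a minority of the ILC2-like cells. Il5 was detected in 65 of 304 cells (21.4%, 95% Wilson interval 17.1 to 26.3), and the 31 richest cells held 88.7% of its UMIs. Il13 was detected in 44 cells, with 95.5% of its UMIs in the 31 richest, and Areg in 111 cells with 80.2%. In B-like cells, which should lack them, the shares of cells with a UMI were 0.0219% for Il5, 0% for Il13 and 0.175% for Areg (median 3912 UMIs per cell, 4099.5 in ILC2-like cells). These intervals cover counting error only. Il13 was found in 43.1% of the Il5-positive and 6.69% of the Il5-negative cells. With every cell thinned to 1500 UMIs the shares were 25.6% and 5.24%.

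Sub-clustering, done without the 10 genes, gave 3 groups of ILC2-like cells. The first, of 168 cells, had 32.7 CPM of Il5, 29.7 of Il13 and 134 of Areg, the second, of 97 cells, 302, 169 and 754 CPM, and the third, of 39 cells, 1267, 765 and 2648 CPM. Gata3 was higher along the same order, at 438, 490 and 1428 CPM, whereas Arg1 did not follow it, at 190, 133 and 161 CPM. The third group was led by Ccl1, a chemokine of activated ILC2s, and Csf2, the cytokine GM-CSF. Smad4iko 3 placed 2 cells in the second and 1 in the third group and Smad4iko 4 placed 0 and 2, compared with 24 and 14 for Smad4iko 1 and 11 and 7 for Smad4iko 2. Smad4fl/fl 2 had 11 and 0. The 3 libraries lowest in Il5 and Il13, Smad4fl/fl 2 and Smad4iko 3 and 4, thus had 0 to 2 cells in the third group. Within the second group Smad4fl/fl 2 was also low, at 74.3 CPM of Il5 and 0 of Il13. Smad4fl/fl 1 and 3 and Smad4iko 1 and 2 had 146 to 474 and 38.4 to 590 CPM there. In the first group, with 22 Il5 and 20 Il13 UMIs in all, the same 3 libraries were not the 3 lowest. Il5 there was 0, 56.4 and 6.82 CPM in Smad4fl/fl and 37.1, 41.3, 16.6 and 98.9 CPM in Smad4iko. Il13 was 8.94, 67.7 and 0 CPM in Smad4fl/fl and 37.1, 124, 25.0 and 39.6 CPM in Smad4iko. The parts of makeup and of level within a group were not tested.

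The identity of the class was checked in each library. Of 13 ILC2 markers 12 were detected and Ptgdr2 was at 0. Their sum was 4688 to 6174 CPM in Smad4fl/fl, 6160 and 5654 CPM in Smad4iko 1 and 2, and 2840 and 3913 CPM in Smad4iko 3 and 4, the lowest of the 7. All 6 T cell markers were detected and summed to 566 to 1501 CPM, highest in Smad4iko 3, compared with 4171 to 4879 CPM in naive-like CD4 T cells. The part of this difference in the cytokine values was not tested.

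At equal depth of 1500 UMIs, a depth that left out 13 cells, the share of ILC2-like cells with Il5 was 20.5%, 11.1% and 13.95% in Smad4fl/fl and 22.0%, 21.7%, 3.12% and 8.00% in Smad4iko. For 7 genes examined in this way 0 shares differed (two-sided exact permutation test over 35 assignments, smallest possible p 0.0286; adjusted p = 0.886 for each). Unthinned Il5 shares were 24.1%, 12.8% and 23.3%, against 28.8%, 40.0%, 6.25% and 7.41%. ILC2-like cells made up 0.996%, 0.553% and 0.621% of kept cells in Smad4fl/fl and 0.925%, 0.379%, 0.393% and 0.406% in Smad4iko (adjusted p = 0.643 over 10 classes, exact permutation test).

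Il4 came mainly from the 84 basophil- and mast-like cells, where all 11 markers of these types were detected. The level was 62.4, 394 and 483 CPM in Smad4fl/fl (313 ± 222, SD, n = 3) and 408, 879, 3065 and 1118 CPM in Smad4iko (1367 ± 1170, SD, n = 4). The 3 highest values were from Smad4iko and the fourth overlapped the controls; with 7 to 19 cells a library the class was not tested. Il4 was found in 61.9% of these cells (median 3484 UMIs) and 0.0438% of B-like cells. All basophil- and mast-like cells of Smad4iko 3 and 4 lay in one sub-cluster of 32 cells, which had 1456 CPM of Il4 and took 5 cells from the other libraries, so the level and the sub-cluster cannot be told apart.

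The same cells were the second source of Il13, at 374, 300.4 and 816 CPM in Smad4fl/fl and 48.0, 275, 681 and 700.3 CPM in Smad4iko, with overlap. Here Smad4iko 3 and 4 lay above Smad4iko 1 and 2, the opposite of their order in ILC2-like cells. No Il5 UMI was found in the 84 cells, which allows up to 3.57% of cells with a detected UMI and a level of up to 9.85 CPM.

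Among T cells, Il4 was found in the Zbtb16-high cluster, Zbtb16 being the factor PLZF of innate-like T cells. One sub-cluster of 235 cells had Il4 UMIs in 27.7% of cells, and its levels were 47.1, 84.3 and 22.0 CPM in Smad4fl/fl and 65.5, 67.8, 63.9 and 62.5 CPM in Smad4iko. The 4 Smad4iko values were close together and within the control range. Memory-like CD4 T cells, in which T helper 2 cells would be sought, had 22 Il4, 59 Il5 and 31 Il13 UMIs in 538 cells. Their Il5 came from 8 cells, at 75.1, 0 and 0 CPM in Smad4fl/fl and 40.8, 2.56, 0 and 0 CPM in Smad4iko. In ILC2-like cells Il4 was sparse, with 23 UMIs. Treg-like and naive-like CD4 T cells had no Il5 UMI.

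**Figure D4:**
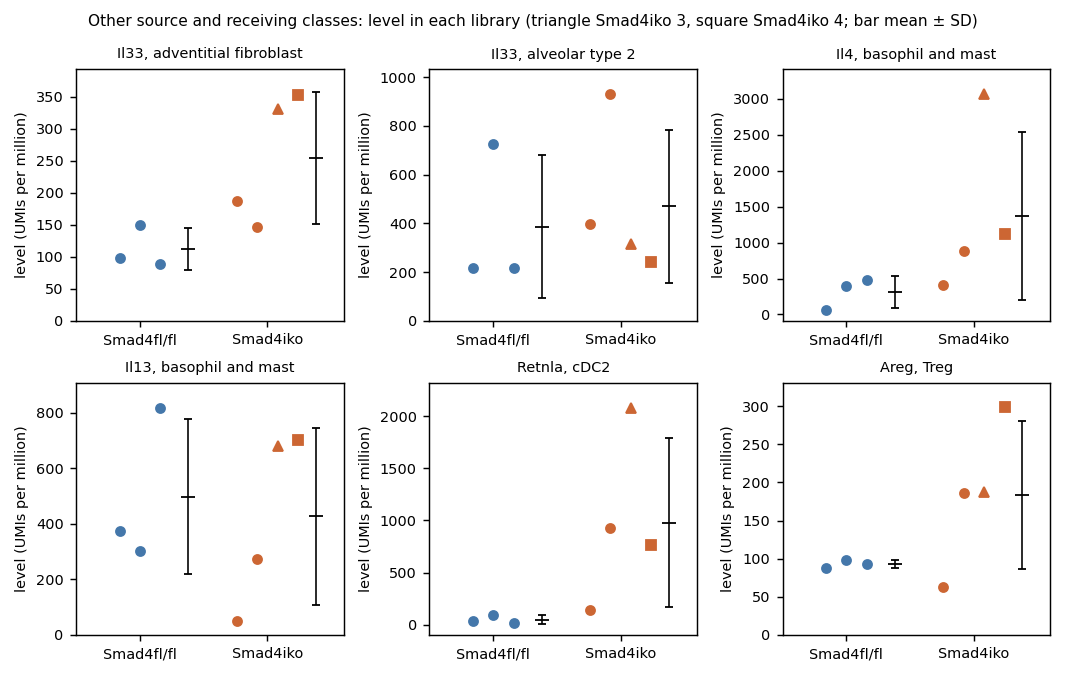
Levels of 5 genes in their other source or receiving classes, in CPM (vertical axes), 1 point per library with triangle and square for Smad4iko 3 and 4 and bars for mean ± SD by genotype. The 2 genotypes are separated for Retnla in cDC2-like cells, and overlap in the other 5 panels.

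Il4ra, the chain through which both IL-4 and IL-13 signal, was highest in resting T cells. Naive-like CD4 T cells had 273, 195 and 279 CPM in Smad4fl/fl (249 ± 46.9, SD, n = 3) and 225, 210, 63.5 and 75.3 CPM in Smad4iko (143 ± 85.9, SD, n = 4). CD8 T-like cells showed the same picture, with 239, 178 and 238 CPM against 199, 204, 48.6 and 50.3 CPM. In both classes Smad4iko 1 and 2 were inside the control range and Smad4iko 3 and 4 were below all others, as were 31.3% of all genes in naive-like CD4 T cells and 34.5% in CD8 T-like cells.

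The log2 fold changes were -0.69 (SE 0.37, adjusted p = 0.807) and -0.73 (SE 0.42, adjusted p = 0.787, edgeR). Without Smad4iko 3 and 4 they were -0.14 and -0.10. Naive-like CD4 T cells of those libraries came mostly from one cluster, in which the other libraries had 0 to 18 cells each. In another cluster Smad4iko 3 and 4 had 58 and 126 cells, with 73.2 and 88.6 CPM of Il4ra. There Smad4fl/fl 1 to 3 had 189, 197 and 86.8 CPM (14, 1059 and 35 cells). Smad4iko 1 and 2 had 185 and 105 CPM (77 and 17 cells). Treg-like cells gave 178, 121 and 176 CPM against 118, 134, 41.6 and 68.0 CPM, a fold change of -0.74 (SE 0.30, adjusted p = 0.579, edgeR). In gamma-delta T-like cells it was -0.77 (SE 0.26) with the lowest adjusted p of any member, 0.163 (edgeR). Levels there were 61.4 to 110 CPM in Smad4fl/fl and 40.8 to 62.1 CPM in Smad4iko, with overlap. Smad4iko 3 and 4 were both below the other 5 libraries, and Smad4fl/fl 1 and 2 had 18 and 23 cells. Of all 6739 genes tested in this class 65 passed, and for 636 Smad4iko 3 and 4 were both below the other 5 libraries.

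In capillary classes the estimate had the opposite sign. It was also positive in type 1 conventional dendritic (cDC1)-like cells (0.39, SE 0.58) and adventitial fibroblast-like cells (0.39, SE 0.41). In aerocyte-like (aCap) capillary cells Il4ra was 111, 98.5 and 104 CPM in Smad4fl/fl and 113, 123, 168 and 161 CPM in Smad4iko, without overlap but with Smad4iko 1 only just above the highest control. Smad4iko 3 and 4 were the highest, as for 16.3% of genes in this class. The log2 fold change of 0.36 (SE 0.15, adjusted p = 0.722, edgeR) was 0.15 without them. Over the 16 classes fitted, Smad4iko 3 and 4 had the lowest Il4ra levels in 8 and the highest in 2, the aCap-like and general capillary-like cells. The difference between naive-like CD4 T and aCap-like cells in their genotype effect did not pass (exact permutation test, p = 0.171, adjusted p = 0.583 over 17 class pairs).

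**Figure D5:**
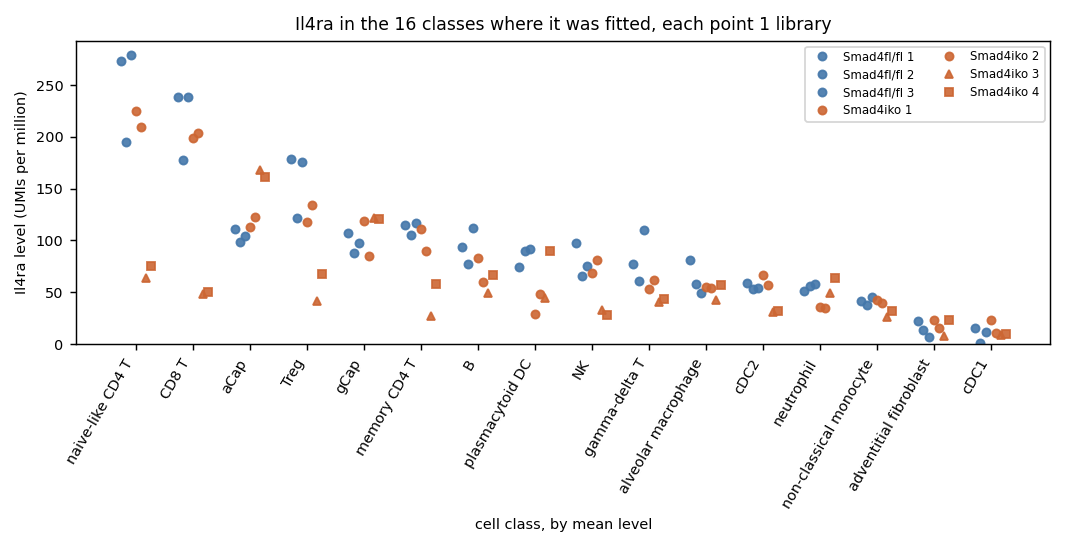
Il4ra level in CPM (vertical axis) in the 16 fitted classes, ordered by mean level, 1 point per library (circles in 2 colours by genotype, triangle Smad4iko 3, square Smad4iko 4). In the naive-like CD4 T and CD8 T columns the triangle and the square lie between 48.6 and 75.3 and all other points at or above 178.

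Areg outside ILC2-like cells was found most in ciliated-like cells (742 CPM), alveolar type 2-like cells (358 CPM), basophil- and mast-like cells (289 CPM), cDC2-like cells (191 CPM) and, by number of UMIs, alveolar macrophage-like cells, which held 26.8%. Treg-like cells, a source of Areg in tissue repair, had 88.2, 98.4 and 92.7 CPM in Smad4fl/fl (93.1 ± 5.14, SD, n = 3) and 62.1, 186, 187 and 300 CPM in Smad4iko (184 ± 97.0, SD, n = 4). The controls were close together, and 3 of 4 Smad4iko libraries were above them and 1 below. In these cells the log2 fold change was 0.99 (SE 0.39, adjusted p = 0.579, edgeR), and 0.33 without Smad4iko 3 and 4. With the filter on low counts removed it was 0.95 and passed (edgeR adjusted p = 0.0195), as did Areg in memory-like CD4 T cells at 0.99 (adjusted p = 0.0257) and in neutrophil-like cells at 2.36 (adjusted p = 0.0089). Of the Treg-like cells with Il1rl1, 46.3% had Areg, compared with 15.8% of those without (30.2% and 9.33% after thinning).

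In cDC2-like cells the Areg values were 414, 143 and 262 CPM in Smad4fl/fl and 197, 158, 53.8 and 66.7 CPM in Smad4iko (log2 fold change -1.26, SE 0.53, adjusted p = 0.708; -0.61 without Smad4iko 3 and 4, edgeR). Smad4iko 1 and 2 lay within the control range. One sub-cluster held most of the Areg (1388 of 1717 UMIs) and had 3 cells each from Smad4iko 3 and 4. In ciliated-like cells Areg ran from 111 to 1663 CPM and was not tested, with as few as 4 cells in a library.

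Retnla, a secreted resistin-like protein best known from macrophages exposed to IL-4 and IL-13, was here mainly a cDC2 transcript. Levels were 37.4, 94.9 and 11.7 CPM in Smad4fl/fl (48.0 ± 42.6, SD, n = 3) and 137, 931, 2084 and 760.5 CPM in Smad4iko (978 ± 813, SD, n = 4). All 4 Smad4iko libraries were above all 3 controls, as were 3.81% of genes in this class. The log2 fold change was 4.24 (SE 0.91, unadjusted p = 0.0010) with an adjusted p of 0.708 (edgeR), and 3.54 without Smad4iko 3 and 4 (adjusted p = 0.994). With the filter on low counts removed it was again 4.24 and passed (edgeR adjusted p = 4.9e-05). That setting also passed Retnla in plasmacytoid dendritic-like cells, at -6.13, where all 29 UMIs came from 1 cell.

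Few cells carried it. Of 609 cDC2-like cells 41 had a Retnla UMI (6.73%, median 14281 UMIs; 0.241% of B-like cells), and 27 cells with 10 or more UMIs held 99.4% of the transcript. The cells with a UMI numbered 7, 3 and 2 in Smad4fl/fl and 4, 8, 10 and 7 in Smad4iko. The highest cell of a library had 9 to 53 UMIs in Smad4fl/fl and 67 to 651 in Smad4iko. Taken as shares of the 50 to 148 cDC2-like cells of a library these were 4.73%, 3.45% and 4.00% in Smad4fl/fl and 7.55%, 11.3%, 10.9% and 6.48% in Smad4iko. With every cell thinned to 1500 UMIs the shares were 2.70%, 3.45% and 0% (0 of 49 cells, which allows up to 6.12% with a UMI), against 5.66%, 8.70%, 9.89% and 4.63%. Both the shares of carriers and the content of the richest carrier were higher in the Smad4iko libraries without overlap, although the counts of carriers overlapped; the shares rest on 2 to 10 cells a library and were not tested.

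Most Retnla (4752 UMIs) lay in one sub-cluster of 220 cells, of which Smad4iko 3 and 4 gave 58 and 76. Within it the levels were 241, 164 and 0 CPM in Smad4fl/fl and 315, 1695, 3032 and 1073 CPM in Smad4iko, again without overlap, with 1 carrier each of 10 and 12 cells in Smad4iko 1 and 2. In a second sub-cluster, with 846 UMIs, the levels were 3.74, 137 and 32.4 CPM in Smad4fl/fl and 141, 1187, 0 and 0 CPM in Smad4iko, with overlap; Smad4iko 3 and 4 had 3 cells each there. The sub-cluster of 220 cells carried C1qa and C1qb, complement genes of macrophages, beside the cDC2 genes Mgl2 and Cd209a among its leading genes. The 27 cells with 10 or more Retnla UMIs had 25.4 CPM of Apoe and 4.24 of Pf4, compared with 14926.5 and 1388 CPM in interstitial macrophage-like cells, and 1330 CPM of C1qa compared with 4981. The 9 interstitial macrophage markers summed to 1489 to 1896 CPM in the cDC2-like cells of Smad4fl/fl and to 1338, 2791, 2867 and 2649 CPM in Smad4iko. Their part in the Retnla difference was not tested. Interstitial macrophage-like cells, the next source, had 412 Retnla UMIs and levels of 12.2 to 564 CPM, with overlap.

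Arg1 was nearly absent from the macrophages in which it is usually read. Alveolar macrophage-like cells had 8 UMIs in 6189 cells and interstitial macrophage-like cells 1 UMI in 222. ILC2-like cells held 34.7% of all Arg1 UMIs and an unnamed C1q-positive cluster high in Saa3 held 33.5%, most of its 351 cells coming from Smad4iko 4 (265). Arg1 was present in 37.5% of ILC2-like and 0.219% of B-like cells. Eosinophils, which respond to IL-5, were not named as a class. Of the listed eosinophil markers, Epx, which encodes eosinophil peroxidase, had 0 UMIs in all kept cells. The others were detected, with 7567 UMIs of Siglecf, 246 of Ccr3, 112 of Prg2, 159 of Il5ra and 10036 of Ear6. Siglecf also served as an alveolar macrophage marker, and Ear6 was a leading gene of an alveolar macrophage-like cluster.

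Across 38 cell groups the patterns most like each member were found by Pearson correlation of log2(CPM + 1) among 14957 genes, as a description over groups that share the same 7 libraries. Il13 was most like Cpa3 (r = 0.92), a mast cell and basophil protease, Csf2 (0.86) and Il4 (0.81). Il5 was most like Dach2 (0.91), Olfr1259 (0.86) and Il2 (0.82), and Il4 most like Hormad2 (0.90), Hrh4 (0.82) and Cpa3 (0.82). Il33 was most like Rasd2 (0.87), Tspan11 (0.79) and Mlana (0.74). Il1rl1 went with Ccr3 (0.76), Muc3a (0.75) and Samd11 (0.74), and Gata3 with St6galnac3 (0.83), Gimap8 (0.82) and Gimap5 (0.80). For Il4ra the nearest were H2-K1 (0.86), H2-D1 (0.79) and Il2rg (0.79), Il2rg being the common cytokine receptor chain that pairs with it. Areg was nearest to Espn (0.79), Tent5a (0.74) and Runx1 (0.68), Retnla to Slc13a3 (0.85), Btbd17 (0.84) and Fcrls (0.81), and Arg1 to Olfr1259 (0.73), Dach2 (0.72) and Il5 (0.68).

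No other gene of the pathway was called either. Of a list of 72 cytokines, receptors, signalling genes and targets, 55 were tested in at least 1 class, and 0 of 463 tests passed (edgeR, lowest adjusted p 0.125; 56 tests, 12.1%, at an unadjusted p under 0.05, compared with 6.63% of all gene tests; DESeq2 4). The 4 were all Retnlg, a neutrophil gene of the same family as Retnla, in B-like, neutrophil-like, alveolar macrophage-like and general capillary-like cells. Its edgeR log2 fold changes were 4.09 (adjusted p = 0.326) in B-like, 1.37 (0.272) in neutrophil-like and 2.56 (0.437) in alveolar macrophage-like cells; this gene is named after its values were seen. Neutrophil-like cells numbered 332, 646 and 1044 in Smad4fl/fl and 1024, 2071, 1452 and 823 in Smad4iko, and their part in the Retnlg values of other classes was not tested. In ILC2-like cells 18 list genes were tested, with a median log2 fold change of 0.12 beside 0.01 over all 1735 genes. They included Csf2 (0.17, SE 0.76), Il2 (0.64, SE 0.29), Calca (-0.85, SE 0.62), the neuropeptide gene of lung ILC2s, the IL-7 receptor Il7r (0.01, SE 0.26) and the transcription factor Rora (-0.20, SE 0.33), all with an adjusted p of 0.999. The median over 35 list genes in cDC2-like cells was -0.26, beside 0.00 over all genes, and over 40 in alveolar macrophage-like cells -0.07, beside -0.00.

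At the receiving end, ILC2-like cells had 1217 CPM of Il7r and 401 CPM of Il2ra, the IL-2 receptor alpha chain. Adventitial fibroblast-like cells, beside Il33, had 40.4 CPM of the alarmin Tslp and 757 CPM of the eosinophil chemokine Ccl11. Alveolar macrophage-like cells had 8825 CPM of Chil3 and 1150 CPM of Mrc1, both often used as markers of the IL-4 response and both part of normal alveolar macrophage identity. In cDC2-like cells the chemokine Ccl17 stood at 1091 CPM and Mgl2 at 904 CPM. Basophil- and mast-like cells had 2912 CPM of Il6 and 483 CPM of Fcer1a, the IgE receptor chain.

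Of the shares of 10 source and receiving classes, 0 differed between genotypes (exact permutation test, lowest adjusted p 0.571). Gamma-delta T-like cells were 0.227%, 0.326% and 1.21% of kept cells in Smad4fl/fl and 2.09%, 1.23%, 2.14% and 3.65% in Smad4iko, without overlap (exact permutation p = 0.0571, adjusted p = 0.571). Treg-like cells were 0.832%, 1.59% and 1.69% against 1.05%, 0.895%, 0.504% and 0.826%. Basophil- and mast-like cells were 0.113%, 0.270% and 0.202% against 0.125%, 0.106%, 0.123% and 0.255%. Adventitial fibroblast-like cells, the largest Il33 source, ranged from 0.794% to 2.81% in Smad4fl/fl and from 0.233% to 2.26% in Smad4iko. Of the 927 alveolar fibroblast-like cells, 811 were from Smad4fl/fl 1, where they were 10.2% of kept cells, and 0 and 1 from Smad4iko 3 and 4.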

How the data were processed

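Peripheral lung suspensions of 3 Smad4fl/fl and 4 Smad4iko libraries were measured by 10x 3' RNA sequencing. The deposited matrices hold counts of UMIs per gene and barcode, made by the authors with Cell Ranger 6.1.1 per the file headers; fastp, UMI-tools and the build mm10 are named in the submitters' processing notes. Every deposited barcode had at least 500 UMIs.

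Cells with at least 300 genes, 600 UMIs and at most 20% mitochondrial UMIs were kept, and 1284 doublets predicted with Scrublet (scanpy 1.11.5) were removed. Cells were clustered (2000 variable genes, 40 components, Leiden) without the 10 genes, Smad4, sex-linked, immunoglobulin and mitochondrial genes. Clusters were named by marker sets, after their leading genes were seen; 3206 kept cells (6.45%) stayed in no named class. UMIs were summed per library and class and fitted by genotype with edgeR 4.0.16 (quasi-likelihood, filterByExpr, TMM) in the 17 classes with 15 or more cells in every library, with Benjamini-Hochberg adjustment over all genes of a class and a threshold of 0.05. CPM are UMIs of a gene scaled to 1000000 UMIs of the class in that library. Shares were compared by two-sided exact permutation tests. The test was checked on simulated data. Alternatives were DESeq2 1.42.0, no TMM, no filter on low counts, doublets kept, a stricter cell filter, a replicate block, a covariate for Smad4iko 3 and 4, a sex covariate, another minimum of cells, another thinning depth, a leukocyte denominator and each library left out; leaving out Smad4iko 3 and 4 together was added after the data were seen.

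The 10 members, the pathway list and the marker sets were chosen with earlier results of these data known. All members are described in classes of 50 or more cells, in full for the 3 tested classes with the highest mean CPM and for the class with the highest pooled CPM; other sub-clusters and classes were chosen after their values were seen. The 3 most alike genes of each member and at most 3 list genes for each role and class are named.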

Additional observations from a re-analysis of the deposited data

Results flagged for a closer look

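In 4 of 53 groups of 4 Smad4iko libraries checked, 1 library lay far from the other three; chance gives about 1 in 20 such groups. Il5 in memory-like CD4 T cells was 40.8 CPM in Smad4iko 1, against 2.56 CPM in the next library. The share of ILC2-like cells was 0.925% of kept cells in Smad4iko 1, against 0.406% in the next. Basophil- and mast-like cells were 0.255% of kept cells in Smad4iko 4, against 0.125%. Arg1 was found in 34.4% of the thinned ILC2-like cells of Smad4iko 3, against 20% in the next library.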

How the results depend on the processing

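Counts of calls among the 10 genes stayed at 0 in every alternative but one: without the filter on low counts 6 gene and class pairs passed. In the pathway list 0 tests passed, with 4 by DESeq2, 20 without the filter, 2 with a covariate for Smad4iko 3 and 4 and 1 without those libraries. Of the class shares and of the ILC2-like cell shares 0 passed in any alternative.

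Replicate numbers do not pair the samples: the correlation of deviations from the group means was 0.55, -0.19 and 0.48 for numbers 1, 2 and 3. With the replicate block 4 tests of the pathway list passed and 0 of the 10 genes; Areg in ILC2-like cells was then 0.031 and Il33 in whole libraries -0.17 on the log2 scale.

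None of the following folds passed a test, and the cause of each change of sign was not tested. In ILC2-like cells Areg was 0.65 with the covariate and 0.72 without Smad4iko 3 and 4, Il1rl1 -0.0053 without TMM factors, and with the sex covariate Il5 was -0.11 and Il13 -0.17. In whole libraries the covariate and the removal gave 0.90 and 0.91 for Il5, 0.0038 and 0.0027 for Il1rl1, 0.053 and 0.051 for Gata3, and -0.11 and -0.11 for Arg1. Without TMM factors Il13 was -0.034 and Il33 -0.12 there, and Il33 was -0.076 with doublets kept and -0.17 with the sex covariate.

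Leaving out each library in turn gave ranges in ILC2-like cells of -0.17 to 1.18 for Il5 and -0.60 to 0.59 for Il13, both lowest without Smad4iko 1 and highest without Smad4fl/fl 1. For Areg the range was -0.85 (without Smad4iko 1) to 0.24 (without Smad4iko 3), and for Il1rl1 -0.021 (without Smad4fl/fl 3) to 0.15. Il1rl1 in Treg-like cells ranged from -0.019 (without Smad4fl/fl 3) to 0.47. In whole libraries the ranges were -1.10 to 0.79 for Il5, -0.30 to 0.45 for Il13, -0.25 to 0.37 for Il33 and -0.14 to 0.13 for Gata3. Depth limits the classes with few cells: Il4 entered no class fit, and basophil- and mast-like and alveolar type 2-like cells were not tested.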
